A study of Mus musculus with 13 samples.

Results

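The killer cell lectin-like receptors described here are 10 genes: the Ly49 genes Klra1, Klra3, Klra4, Klra7, Klra8 and Klra9, and the NKG2 and CD94 genes Klrc1, Klrc2, Klrd1 and Klrk1. They were taken as a fixed list of 10 among the 55353 genes in the count matrices. UMIs (unique molecular identifiers, each marking 1 captured transcript) of these genes were read in 95563 barcodes with at least 1500 UMIs. Of these cells, 2664 (2.79%) held at least 1 UMI of Ncr1 (NKp46, an activating receptor of innate lymphocytes) and none of Cd3e and form the NK gate. Another 7506 cells (7.85%) held at least 1 UMI of Cd8b1 and form the CD8 gate, 60 cells met both gates and were left out of both, and the remaining 85333 were other cells. The mice were male C57BL/6J animals of 6 to 12 weeks on chow with 0.1% DDC (3,5-diethoxycarbonyl-1,4-dihydrocollidine, which injures bile ducts), and steady-state animals (D0) ate no DDC. Single liver cells were profiled by droplet 3' sequencing at D0, D3, D5, D9, D19 and D25 with isolation protocols A and B, giving 12 libraries. Another library, STOP, was made with protocol B after 18 or 19 days of diet and 7 days of recovery. D3 and D5 (4 libraries) are called onset, and D9, D19 and D25 (6 libraries) progression, and 2 libraries are steady state. The labels do not say which or how many mice went into a library, and the D19 library of protocol B carries day 18 in another label.

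Ly49 receptors are lectin-like dimers on natural killer (NK) cells that read MHC class I on other cells, and each NK cell switches on its own subset of the family. The inhibitory members carry a tyrosine motif (ITIM) near the start of the protein that recruits phosphatases such as SHP-1, whereas the activating members lack it and signal through the adaptor DAP12. The NKG2 proteins NKG2A (Klrc1, inhibitory) and NKG2C (Klrc2, activating) pair with CD94 (Klrd1) and read the nonclassical molecule Qa-1, and NKG2D (Klrk1) reads stress-induced ligands such as RAE-1. The liver holds conventional NK cells and resident type 1 innate lymphoid cells (ILC1), which share Ncr1.

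All 10 genes lie in the NK gene complex on chromosome 6 (GRCm38, GENCODE M21), within the 795 kb from 129591782 to 130386874. The NKG2 side holds Klrd1 (chr6:129591782-129598775, plus strand), Klrk1 (chr6:129610323-129623864), Klrc2 (chr6:129647496-129660689) and Klrc1 (chr6:129666015-129678973). The Ly49 side spans 343 kb and runs Klra4 (chr6:130043731-130067271), Klra8 (chr6:130115226-130129898), Klra9 (chr6:130178675-130193112), Klra7 (chr6:130218605-130233322), Klra3 (chr6:130323289-130337574) and Klra1 (chr6:130363917-130386874). Every gene other than Klrd1 is on the minus strand. The opening 60 coding bases, 5′ to 3′, of the longest protein-coding transcript are shown for the Ly49 genes, Klrc1 and Klrc2, because they separate inhibitory from activating receptors. Capitals mark the codons of a tyrosine motif (isoleucine, leucine, valine or serine, any residue, tyrosine, any 2 residues, then isoleucine, leucine or valine) searched in the opening 60 codons.
Klra1: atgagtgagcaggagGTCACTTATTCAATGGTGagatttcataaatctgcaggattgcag
Klra3: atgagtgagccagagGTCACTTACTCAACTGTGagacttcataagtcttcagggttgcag
Klra7: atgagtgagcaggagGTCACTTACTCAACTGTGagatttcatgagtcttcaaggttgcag
Klra9: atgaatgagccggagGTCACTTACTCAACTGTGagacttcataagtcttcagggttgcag
Klra4: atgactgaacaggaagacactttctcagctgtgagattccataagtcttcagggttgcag
Klra8: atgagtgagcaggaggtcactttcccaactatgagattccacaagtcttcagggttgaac
Klrc1: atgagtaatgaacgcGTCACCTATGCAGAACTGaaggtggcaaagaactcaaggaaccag
Klrc2: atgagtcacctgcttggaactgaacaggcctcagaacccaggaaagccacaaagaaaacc
The motif began at codon 6 in Klra1 (Ly49A), Klra3 (Ly49C), Klra7 (Ly49G2), Klra9 (Ly49I) and Klrc1. It was not found in the activating genes Klra4 (Ly49D), Klra8 (Ly49H) and Klrc2, nor in Klrd1 and Klrk1.

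The likeness of these genes limits how far their reads can be told apart. Of the 31-base words in the last 400 bases of the transcript, where 3' reads begin, 97% were found in no other gene for Klra1 and 92.7% for Klra4. The share was 54.1% for Klra8, 47.8% for Klra7, 43.8% for Klra3 and 30.5% for Klra9. Klra3 and Klra9 shared 55.9% of their words with each other, and Klra7 shared 52.2% with the pseudogene Klra13-ps. For Klrc1 the unshared part was 24.3%, since 75.7% of its words also occur in a Klrc2 transcript, whereas all words chosen from Klrc2, Klrd1 and Klrk1 occur in no other gene. The words of Klrc2 came from its longest protein-coding transcript alone, which is not the one that shares words with Klrc1. Values of Klra3, Klra9, Klra7, Klra8, Klrc1 and Klrc2 are therefore uncertain to the extent that counting split shared reads.

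Libraries held 1541 to 14764 cells and 29307190 (D3 B) to 108602421 (D25 A) UMIs, and pairs of libraries shared at most 49 cell barcodes (D9 A and D25 A), or at most 0.519% of the smaller library (8 barcodes, D3 B and STOP). The NK gate held 8 (D19 A) to 627 (STOP) cells a library, and the CD8 gate 19 (D3 A) to 1578, so D3 B (15 NK-gate cells), D19 A and the CD8 gate of D3 A were left out wherever at least 20 cells were required. Protocol A sorted CD45+ cells beside endothelial, biliary and stellate gates. Protocol B sorted Epcam+, CD3e+ Lyve-1- and CD45+ CD11c+ CD64- gates beside live cells of a stellate cell preparation. Shares of lymphocytes per library can thus be set by the sort. Klrb1c (NK1.1) was detected in 77.4% of NK-gate cells (25% to 89.1% by library), and Cd3d or Cd3g, which the gate does not use, in 25.8% (0% to 60.7%). D5 B was lowest in Klrb1c, at 25% of its 108 NK-gate cells, followed by D25 A at 40%. Cd3d or Cd3g was detected in 60.7% of the 145 NK-gate cells of D9 B, 56.5% of D5 B and 46.7% of D3 B, so these libraries go against calling the whole gate NK cells. In the CD8 gate Cd3e was detected in 74.6% of cells, and Siglech, a marker of plasmacytoid dendritic cells, in 17.1% (4.55% to 61.3% by library), against 0.327% of Stab2-positive endothelial cells. The data thus go against calling the whole gate CD8 T cells, and it is called the CD8 gate. Doublets were not removed. Detection shares were taken after thinning each cell to 1500 UMIs, and levels are given as CPM, a gene's UMIs scaled to a common total of all UMIs in the cells of a group.

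The Ly49 genes were compared across 12 cell groups of the liver. The summed level of the 6 Ly49 genes was 759 ± 732 CPM (SD, n = 11 libraries) in the NK gate, 485 ± 144 CPM (n = 7) in cells with both Ncr1 and Cd3e, 130 ± 68.6 CPM (n = 13) in other Cd3e-positive cells and 47.7 ± 64.6 CPM (n = 12) in the CD8 gate. In the 8 groups marked by Cd79a, Csf1r, Siglech, Xcr1, Epcam, Stab2, S100a8 or Dcn the mean was at most 5.79 CPM. All 7 libraries with both Ncr1 and Cd3e were of protocol B, while the NK gate pooled 5 of protocol A and 6 of protocol B. The order of these 2 groups, here and for the single genes below, is therefore mixed with protocol. The NK gate ranged from 51.6 to 2497 CPM, and the 2 groups are set side by side within protocol B further below. Single genes had other orders: the mean of Klra1 was 117 ± 75.4 CPM with both Ncr1 and Cd3e, 37.6 ± 30.8 CPM in other Cd3e-positive cells and 32.2 ± 34.9 CPM in the NK gate, and that of Klra7 was 193 ± 59.8 CPM with both genes and 97.3 ± 90.6 CPM in the NK gate. Klrc1 had the order of means of the sum, with 229 ± 121 CPM in the NK gate, 189 ± 73.9 CPM with both genes, 54.3 ± 28.8 CPM in other Cd3e-positive cells and 23.5 ± 15.8 CPM in the CD8 gate, and at most 2.32 CPM elsewhere. In Stab2-positive endothelial cells, which should lack these receptors, the highest thinned share of any library was 1.12% for a Ly49 gene, 1.28% for Klrc1 or Klrc2, 2.11% for Klrk1 and 7.38% for Klrd1.

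**Figure D1:**
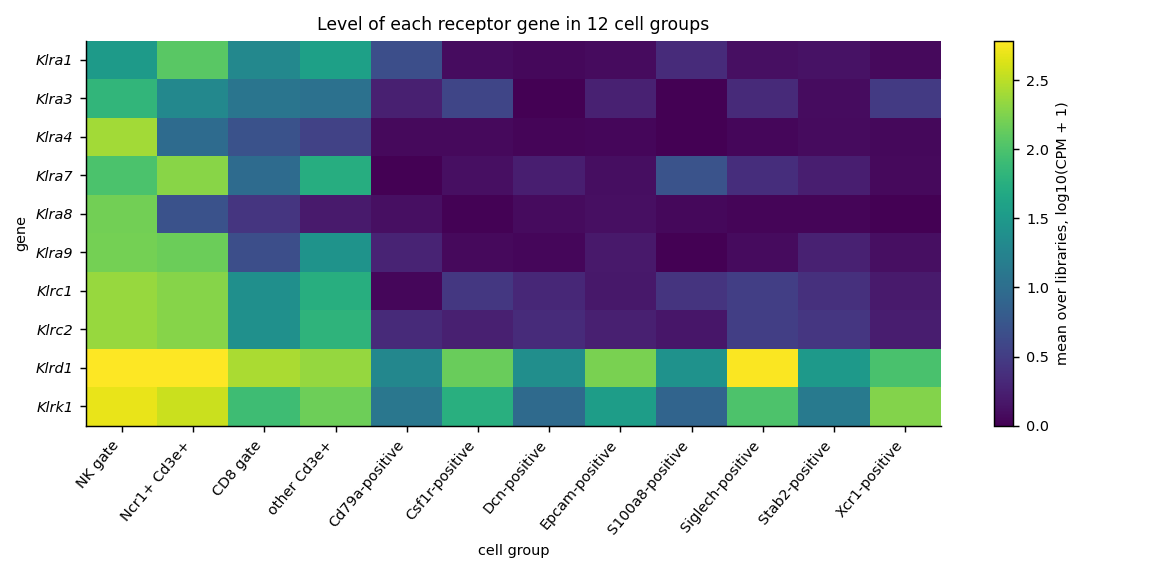
Mean level of each receptor gene (rows) in 12 cell groups (columns), as log10(CPM + 1) of the mean over libraries that held at least 20 such cells; brighter is higher. Klrc1 and Klrc2 lie at 23.5 CPM or above in the 4 lymphocyte groups on the left and at 2.32 CPM or below elsewhere, Klra4 and Klra8 lie at 249 and 155 CPM in the NK gate and at no more than 8.31 and 4.10 CPM in any other group, and Klrd1 is also bright in Siglech-positive cells and Klrk1 in Xcr1-positive cells.

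The chains Klrd1 and Klrk1 reached further. Klrd1 was at 611 ± 189 CPM in the NK gate (n = 11), 610 ± 128 CPM in cells with both Ncr1 and Cd3e (n = 7) and 591 ± 187 CPM in Siglech-positive cells (n = 9), 3 levels that lay within their spread of each other. Siglech-positive cells held Klrd1 in 34.6% to 67.6% of cells, while Klrc1, whose product pairs with CD94, was at 2.32 ± 2.63 CPM there. Klrd1 in Epcam-positive cells ran from 0.178 to 657 CPM, a spread wider than its mean of 165 CPM, and Epcam was the only biliary marker these cells had to hold. Klrk1 was at 495 ± 179 CPM in the NK gate and, next below the lymphocytes with both Ncr1 and Cd3e (366 ± 92.8 CPM), at 186 ± 76.1 CPM in Xcr1-positive cells (n = 11), Xcr1 being a marker of type 1 conventional dendritic cells. Free RNA was not even between libraries: barcodes with at most 100 UMIs held Klrd1 at 11.5 to 661 CPM and Klrk1 at 7.84 to 206 CPM, against at most 71.4 CPM for a Ly49 gene, 147 CPM for Klrc1 and 41.6 CPM for Klrc2. In D25 B and STOP these barcodes held Klra1 at 47.6 and 31 CPM and Klra7 at 71.4 and 37.8 CPM, above the NK gate of the same libraries (5.59 and 9.81 CPM for Klra1, 50.3 and 19.8 CPM for Klra7). In D5 B they held Klra1 at 13.8, Klra7 at 25.0 and Klrd1 at 661 CPM, again above the NK gate (4.39, 7.68 and 488 CPM). Klra4 (3.75 against 3.29 CPM) and Klra8 (0.313 against 0 CPM) had too few counts there to be ordered. Free RNA of D5 B held 12 UMIs of Klra4 and 1 UMI of Klra8. The part of free RNA in these levels was not tested.

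Among genes other than the Klr family with at least 20 CPM in the NK gate (6161 candidates), those whose mean level over the 12 groups most resembled the Ly49 sum were Samd3 (Pearson r = 0.990 on the log2(CPM + 1) scale), Ifng (0.988), Xcl1 (0.983), Gzmb (0.982) and Gm37169 (0.982). These correlations are descriptions over groups that share libraries.

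Within the NK gate, detection of 3 of the 6 Ly49 genes was separate between the protocols. Klra4 was detected in 49.6% of NK-gate cells at D0 of protocol A (95% exact binomial interval 40.8% to 58.4%), 47.8% at D3, 23.6% at D5, 42.1% at D9 and 25.0% at D25 (8.66% to 49.1%). With protocol B it was detected in 13.5% at D0 (10.1% to 17.6%), 1.85% at D5, 4.14% at D9, 3.90% at D19, 2.37% at D25 (1.23% to 4.10%) and 2.39% at STOP. Thus each of the 5 protocol A libraries was above each of the 6 protocol B libraries. Klra8, whose product recognises a mouse cytomegalovirus protein, was detected in 42.1%, 26.1%, 21.8%, 31.6% and 15.0% of cells at D0, D3, D5, D9 and D25 of protocol A, and in 11.2%, 0%, 2.07%, 3.74%, 1.38% and 1.75% at D0, D5, D9, D19, D25 and STOP of protocol B. The 0 of 108 cells at D5 B has an upper exact bound of 3.36%, and a floor of 3 counts stands at 2.78%, both for cells with a UMI and not for cells that express the gene. The protocols were also separate for Klra7 (10% to 31.6% against 1.85% to 8.07%) and overlapped for Klra1, Klra3, Klra9 and all 4 NKG2 and CD94 genes. Klrc1 was detected in 10% to 26.1% of cells with protocol A and in 8.33% to 45% with protocol B. These protocol differences were not tested, and protocol and sort gate cannot be told apart. The share of all genes that separate between the protocols is not given here, so these counts are not read as particular to the receptors. Intervals cover counting error only.

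**Figure D2:**
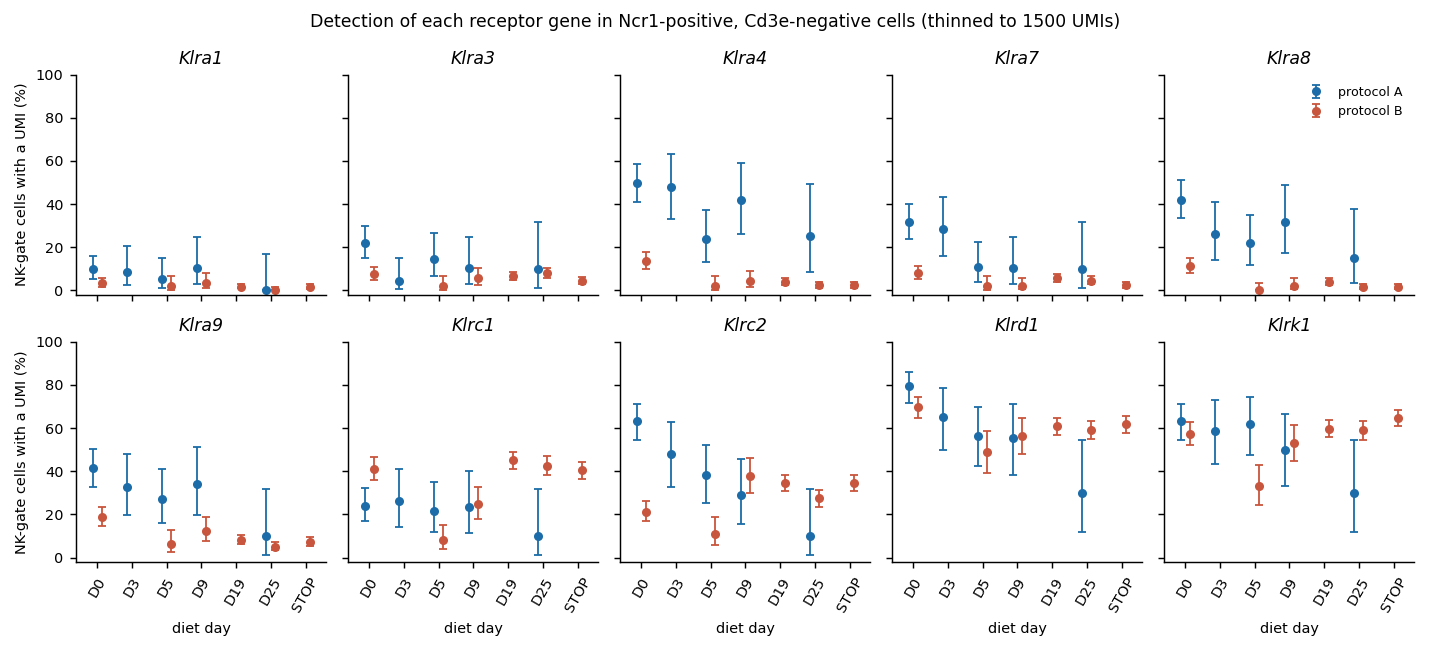
Share of NK-gate cells with at least 1 UMI of each receptor gene (y axis, percent, thinned to 1500 UMIs) by diet day (x axis, categories in order of time), with protocol A in blue and protocol B in red; points are libraries with at least 20 cells and bars are 95% exact binomial intervals. Klra4, Klra7 and Klra8 separate the protocols, and Klra4 lies at 49.6% at D0 and 25.0% at D25 with protocol A, and at 13.5% and 2.37% with protocol B.

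The shares of marker-defined cells in the gate moved with protocol and day. NK-marker cells (at least 1 UMI of Itga2, S1pr5, Eomes or Cma1, and none of Itga1, Cxcr6, Tnfsf10 or Cd200r1) made up 65.4%, 50%, 34.5%, 44.7%, 75% (of 8 cells) and 20% of the NK gate at D0, D3, D5, D9, D19 and D25 of protocol A, and 14.7% at D0 B against 0.926% to 6.90% at D3 to D25 of protocol B and 3.67% at STOP. ILC1-marker cells, defined by the reverse, made up 11.3%, 34.8%, 52.7%, 13.2%, 12.5% and 50% on the same days of protocol A, and 32.6% at D0 B against 47.2% to 63.4% at D3 to D25 of protocol B and 65.9% at STOP. Cells with none of these marker genes made up 51.3% at D0 B, 46.3% at D5 B and 12.4% to 28.2% at the other diet days of protocol B. Median depth of the NK gate was 2222 UMIs at D0 B and 4867 to 9638 UMIs in the other protocol B libraries. Both kinds were read without thinning, and the part of depth in their shares was not tested. Among the diet libraries the share at D0 was the highest of its protocol, in both protocols, for Klra4, Klra7, Klra8 and Klra9 among the Ly49 genes and for Klrd1 among the others. For Klra4 with protocol A it was 49.6%, against at most 47.8% in the other libraries. The share of all genes with D0 highest is not given here, so this count is not read as particular to the receptors.

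The steady-state comparison asked whether receptor transcripts changed while the bile ducts were injured. All 10 genes had lower fitted levels in the NK gate at onset than at steady state, but none passed the test (edgeR quasi-likelihood test on summed UMIs with a protocol term, Benjamini-Hochberg adjusted over all genes). Of all 8613 genes tested, 0.0232% were called and 874 had an unadjusted p under 0.05, as had 6 of the 10. DESeq2 called 96 genes, Klra1 among them (adjusted p = 0.0441). The median log2 difference was -1.80 for the 10 genes and 0.00 for all genes. Markers moved as well, with none called: the median was -1.68 for 11 NK markers, 0.90 for 7 ILC1 markers, 1.72 for 5 dendritic cell markers, 1.97 for 4 endothelial markers, -3.23 for 3 B cell markers and -6.10 for 2 neutrophil markers. The summed NK markers were at 2299 to 7878 CPM at onset and 8409 to 17550 CPM at steady state, with 0 to 2 of the 11 at 0 in a library at onset and none at steady state. These onset values cover 4 libraries, among them D3 B with 15 NK-gate cells, which the fit left out. The part of this cell makeup was not tested. Without D5 B, the library that stood apart in Klrb1c, the log2 differences of the 10 genes ran from -2.10 (Klra1) to 0.13 (Klrk1), and none passed. Klra1 averaged 20.05 ± 15.9 CPM (SD, n = 3) at onset and 73.1 ± 45.3 CPM (n = 2) at steady state, a log2 difference of -2.34 ± 0.58 (SE; adjusted p = 0.187). Klra3 averaged 42.5 ± 35.3 against 150 ± 30.8 CPM, a log2 difference of -2.13 ± 0.59 (adjusted p = 0.218). Klra4 averaged 267 ± 324 against 452 ± 345 CPM, and its groups overlapped (log2 difference -2.33 ± 0.81, adjusted p = 0.324). Klrk1 had the smallest difference, -0.49 ± 0.52 (adjusted p = 0.824). These levels are normalised by the trimmed mean of M-values (TMM), as are all tested levels.

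Progression differed from steady state in the same direction, again without a call (0.0232% of genes called by edgeR, 1079 genes and 6 of the 10 at an unadjusted p under 0.05, and none of the 10 by DESeq2). The median log2 difference was -1.14 for the 10 genes and 0.01 for all genes, beside -1.02 for the NK markers, 0.76 for the ILC1 markers, 1.91 for endothelial, 1.53 for monocyte and macrophage and -2.97 for B cell markers, with none called. Klra8 had the largest, at -1.97 ± 0.77 (adjusted p = 0.333), from 316 ± 229 CPM at steady state (n = 2) to 99.5 ± 124 CPM at progression (n = 5). Klra9 went from 360 ± 108 to 105 ± 96.4 CPM (log2 difference -1.67 ± 0.56, adjusted p = 0.297). Klrd1 went from 966 ± 217 to 523 ± 161 CPM (-0.93 ± 0.31, adjusted p = 0.295), and Klrc1 had the smallest difference (-0.58 ± 0.62, adjusted p = 0.753). Between progression and onset the log2 differences of the 10 genes ran from -0.24 to 0.99, none was called or had an unadjusted p under 0.05, and 0.0464% of all genes were called. With the protocol B libraries alone, where 6.92% of 10153 genes were called, Klra4 and Klra9 were lower at progression (3 libraries; -2.21 and -1.84, adjusted p = 0.0285 and 0.0314), where the lone steady-state library is assumed to vary like the others. At onset protocol B has 1 library on each side (D5 B and D0 B), so no call is read from it. With NK-gate cells free of the 4 ILC1-marker genes, an alternative chosen after seeing the data, none of the 10 was called at either stage.

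NK-marker and ILC1-marker cells were next compared within libraries. In the 4 libraries where both kinds reached 20 cells (D0 B, D19 B, D25 B and STOP, all protocol B, 148 NK-marker and 1169 ILC1-marker cells), 8 of the 10 genes passed the filter on low counts, and 4.21% of all 4230 genes tested were called, in either direction. A gene can pass the filter through the group where it is high, and the p of a receptor is then not read. Here and below, a p of a receptor is given only where most libraries reached the filter's level in the lower group as well. This rule was chosen after seeing the data. Markers and list genes were not checked against it, so their calls can come from the group where they are high. Markers of other cells differed as well: Epcam (2.00 ± 0.45) and Krt19 (3.16 ± 0.65), 2 of 2 biliary markers tested, were higher in NK-marker cells, and Lyz2 of monocytes and macrophages (-3.06 ± 0.51) and H2-Ab1 of dendritic cells (-3.27 ± 0.60) were lower, with adjusted p of 0.0321, 0.0257, 0.00745 and 0.0124. The other listed markers of monocytes, macrophages and dendritic cells are not given here, so Lyz2 and H2-Ab1 do not stand for these cell types. The part of these markers was not tested. Klra4 was at 1012, 576, 489 and 499 CPM in NK-marker cells of D0 B, D19 B, D25 B and STOP, and at 37.9, 7.46, 2.20 and 1.87 CPM in ILC1-marker cells. The lowest NK-marker value was thus far above the highest ILC1-marker value. These levels rest on 384 UMIs in NK-marker and 37 in ILC1-marker cells, a ratio of 120 in CPM when pooled over the 4 libraries. Its counting interval of 85.7 to 173 leaves out the spread between libraries, which the values above show to be wide. The fitted log2 difference was 6.60 ± 0.39 (SE, n = 4 pairs), and 0 of 4 libraries reached the filter's level in ILC1-marker cells. Klra7 held 180 and 201 UMIs (311 ± 183 against 26.0 ± 13.9 CPM, higher in 4 of 4 libraries), with 1 of 4 libraries at the level in ILC1-marker cells. Klra9 was higher by 1.74 ± 0.25 (adjusted p = 0.00363), and was no longer called in 1 of 8 other settings, without the library block (adjusted p = 0.415).

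Klra1 and Klra8 were below the filter in this comparison, and all their values were higher in NK-marker cells. Klra8 was at 369 ± 254 CPM in NK-marker and 11.8 ± 5.92 CPM in ILC1-marker cells (n = 4), and Klra1 at 125 ± 84.0 against 12.2 ± 9.10 CPM. Klra3 did not pass (1.93 ± 0.54, adjusted p = 0.0847) and did so without D25 B (2.69, adjusted p = 0.00124). The NK-marker cells of D25 B stood apart, with Klra8 in 2.86% of 35 cells (interval 0.0723% to 14.9%) against 26.1% to 52.2% in the other 5 libraries with at least 20 such cells. Among the NKG2 and CD94 genes, Klrk1 was higher by 0.53 ± 0.13 (adjusted p = 0.0421), and Klrc1 (-0.37 ± 0.22, adjusted p = 0.490), Klrc2 (0.40 ± 0.21, adjusted p = 0.438) and Klrd1 (0.08 ± 0.16, adjusted p = 0.870) did not pass. The call of Klrk1 was lost without D19 B, D25 B or STOP in turn (adjusted p = 0.113, 0.169 and 0.251) and held without D0 B. It was also lost in 5 of 8 other settings (adjusted p = 0.0629 to 0.617), among them stricter gates (0.34, adjusted p = 0.431).

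Detection per cell was compared between the marker kinds as well. Over all libraries with 20 or more of a kind (6 with NK-marker and 7 with ILC1-marker cells), the median thinned share of Klra4 was 49.5% (11.4% to 73.9%) in NK-marker and 0.356% (0% to 2.17%) in ILC1-marker cells. Klra9 was the Ly49 gene most often detected in ILC1-marker cells, with a median of 9.12% (3.20% to 15.2%), followed by Klra3 with 5.25% (0% to 9.25%), the 2 genes that share most of their 3' words. At least 1 Ly49 gene was detected in 34.3% to 98.9% of NK-marker cells and in 5.88% to 22.8% of ILC1-marker cells. At least 2 Ly49 genes were detected in 20% to 80.5% of NK-marker and 0% to 3.59% of ILC1-marker cells. Median depth was lower in NK-marker than in ILC1-marker cells in 4 of the 4 libraries compared (1925 to 5207 against 2374 to 5644 UMIs).

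**Figure D3:**
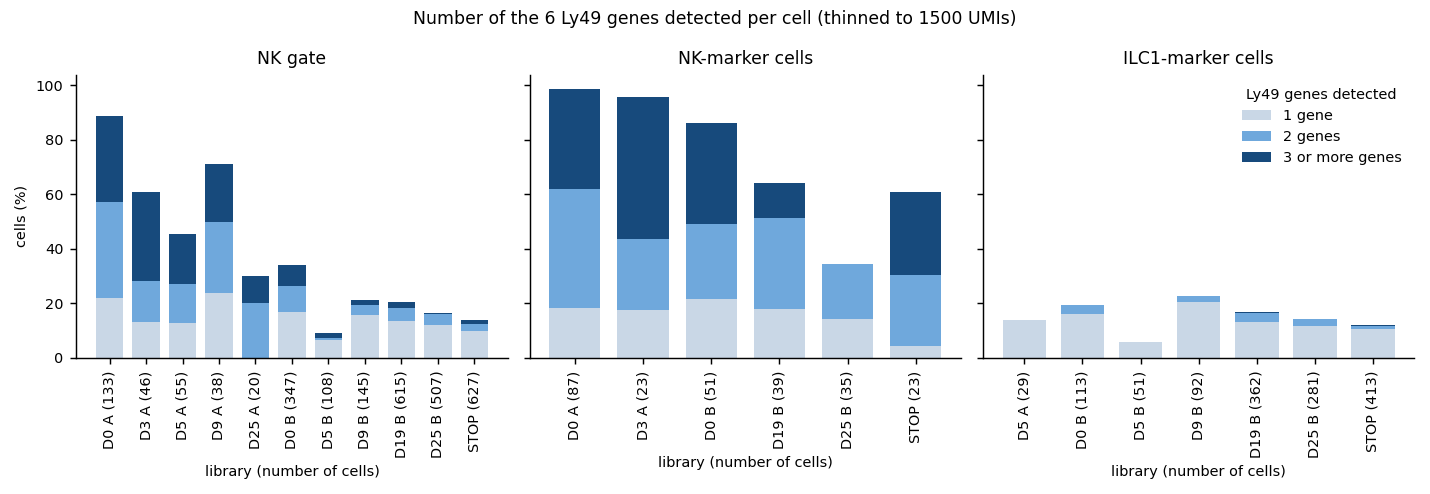
Percent of cells (y axis) in which 1, 2 or at least 3 of the 6 Ly49 genes were detected, after thinning to 1500 UMIs, in the NK gate and in its NK-marker and ILC1-marker cells; each bar is a library with at least 20 cells, its number of cells in parentheses, protocol A libraries on the left of each panel. NK-marker cells reach 98.9% with at least 1 gene at D0 A and 34.3% at D25 B, and ILC1-marker cells stay at or below 22.8%.

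NK-gate cells with and without a Klrc1 UMI were compared, and Klra3, Klra4, Klra7 and Klra8 were lower in Klrc1-detected cells. In 8 libraries with at least 20 NK-gate cells of each kind (1615 cells with and 860 without a Klrc1 UMI), 9 genes were tested, where 2.8% of all 6144 genes were called in either direction. Klra4 averaged 82.7 ± 142 CPM with and 466 ± 581 CPM without Klrc1 (SD, n = 8), a log2 difference of -2.65 ± 0.39 (SE; adjusted p = 0.00692), and Klra8 77.4 ± 139 against 303 ± 320 CPM (-2.41 ± 0.33, adjusted p = 0.00388). Klra7 (-1.45 ± 0.31, adjusted p = 0.0293) and Klra3 (-0.67 ± 0.14, adjusted p = 0.0297) were lower as well, each of the 4 in 8 of 8 libraries. Klra1 was lower in 8 of 8 (19.1 ± 35.3 against 55.0 ± 38.0 CPM), with no p, since 1 of 8 libraries reached the filter's level in Klrc1-detected cells. Klra9 did not pass (-0.88 ± 0.28, adjusted p = 0.108). Klrc2 (0.43 ± 0.16, adjusted p = 0.171), Klrd1 (0.27 ± 0.11, adjusted p = 0.197) and Klrk1 (0.21 ± 0.17, adjusted p = 0.581) did not pass either. The calls of Klra4 and Klra8 held without each of the 8 libraries in turn, and were lost in 2 of 9 other settings, protocol A alone (adjusted p = 0.751 and 0.796) and no library block. Other settings took away the call of Klra7 in 3 of 9 and that of Klra3 in 4 of 9. They added a call for Klrc2, Klrd1 and Klrk1 in 3 of 9 each and for Klra9 in 2 of 9. That of Klra7 was lost without D0 B, D9 B, D19 B, D25 B or STOP (up to 0.0988) and that of Klra3 without D0 A or any of those 5 (up to 0.144), while Klra9 passed without D0 A (-1.19, adjusted p = 0.00618) and Klrd1 without D3 A (0.37, adjusted p = 0.0151). Klrc1-detected cells were deeper in 7 of 8 libraries. Of 9 NK markers tested, 1 was lower, Eomes, a regulator of conventional NK cells (-1.79 ± 0.36, adjusted p = 0.0225), none was higher, and the median log2 difference was 0.23. Of 7 ILC1 markers, 5 were higher (median 0.73), among them Il7r (1.40 ± 0.23, adjusted p = 0.0105) and Gzmc (1.18 ± 0.23, adjusted p = 0.0214). Markers of other cells were lower too: the hepatocyte genes Alb (-1.48 ± 0.29, adjusted p = 0.0212) and Ttr (-1.71 ± 0.39, adjusted p = 0.0365), 2 of 2 tested, and Siglech (-1.38 ± 0.31, adjusted p = 0.0421), 1 of 5 dendritic cell markers. Their part in the Ly49 differences was not tested.

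**Figure D4:**
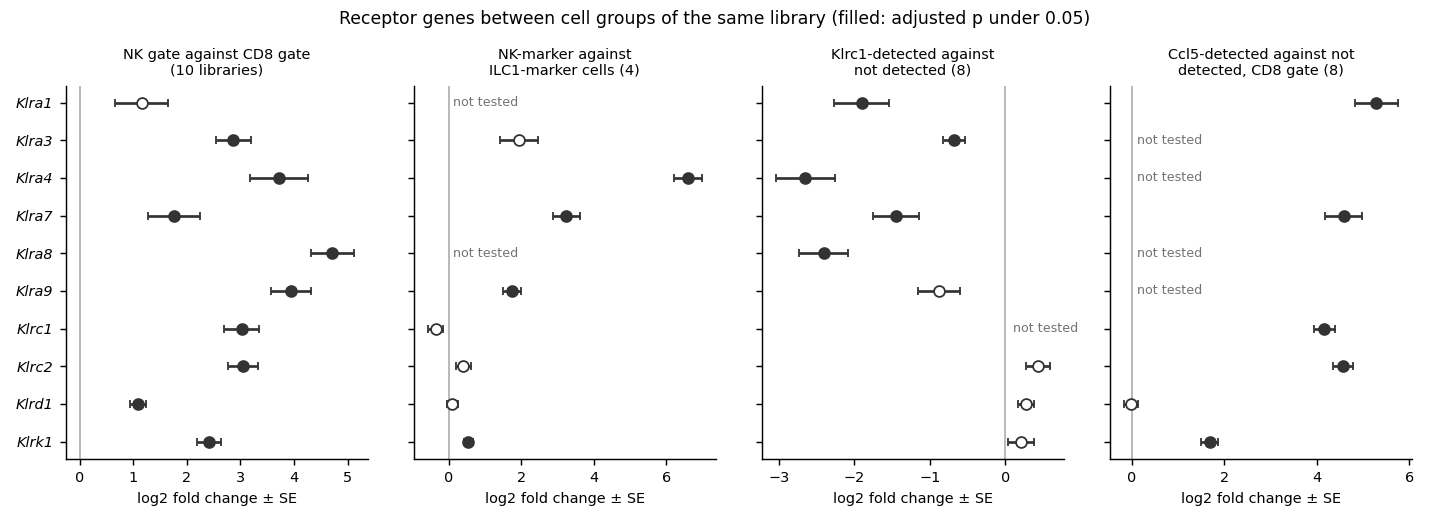
Log2 fold change (x axis) of each receptor gene between 2 cell groups of the same library in the 4 comparisons with the library as a block; points are edgeR estimates, bars are 1 SE and filled points have an adjusted p under 0.05, which the text reads only for genes not low in either group. Klra4 lies at 6.60 between NK-marker and ILC1-marker cells and at -2.65 between Klrc1-detected and other NK-gate cells, and Klrd1 lies near 0 in both splits.

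Co-detection was set beside the product of the 2 detection shares in each library. In the NK gate (2641 cells, 11 libraries) all 15 pairs of Ly49 genes were found together more often than the product, by 1.10 to 2.92 times (median 1.89). Klra4 and Klra8 were found together in 112 cells against 48.9 by the product, above it in 10 of 10 libraries with a value. All 6 pairs of Klrc1 with a Ly49 gene fell below the product, from 0.348 times for Klra4 (25 cells against 71.8, below in 11 of 11 libraries) to 0.789 times for Klra9. Within NK-marker cells alone (258 cells, 6 libraries) the Ly49 pairs lay near the product, with a median of 1.07 times (0.629 to 1.38) and 10 of 15 pairs above it. Within ILC1-marker cells (1341 cells, 7 libraries) 14 of 15 Ly49 pairs lay above the product (0 to 61.5 times, median 5.46), but these ratios rest on 0 to 12 cells a pair, and for 12 of the 15 the product gave under 1 cell. There all 6 pairs of Klrc1 with a Ly49 gene lay below it (0 to 34 cells a pair), with a median of 0.509 times. In NK-marker cells Klra4 with Klrc1 was below it, at 14 cells against 28.1, and Klra8 with Klrc1 at 11 cells against 20.4, each below in 6 of 6 libraries. Klra9 with Klrc1 was above the product in NK-marker cells (25 cells against 19) and above it in 3 of 6 libraries. At least 1 Ly49 gene was detected in 16.9% of NK-gate cells with and 30.1% without Klrc1 (lower with Klrc1 in 9 of 12 libraries), and in 65.8% and 85.1% of NK-marker cells pooled over libraries. Within the 10 libraries that held NK-marker cells of both kinds it was lower with Klrc1 in 4, higher in 5 and equal in 1, so the pooled shares do not stand for most libraries, many of which held few such cells. These are descriptions with no test, and dropout at 1500 UMIs lowers each share.

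**Figure D5:**
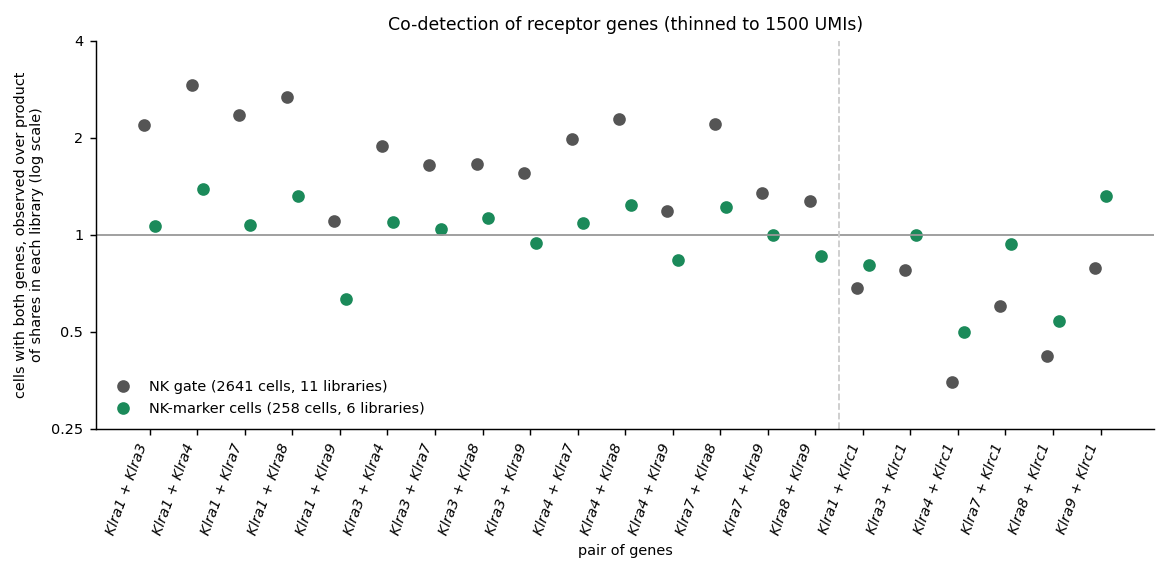
Number of cells with both genes of a pair over the number given by the product of their shares in each library (y axis, log scale), for 15 Ly49 pairs and, right of the dashed line, 6 pairs of Klrc1 with a Ly49 gene; grey points are the NK gate and green points its NK-marker cells. Grey Ly49 pairs all lie above 1 and green ones scatter around 1, while Klrc1 with Klra4 lies at 0.348 and 0.498.

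The NK gate and the CD8 gate of the same libraries were compared to place the receptors between lymphocyte classes. In 10 libraries, Klrc1, Klrc2, Klrd1 and Klrk1 were all higher in the NK gate, where 16% of all 8465 genes were called in either direction. Klrc1 was at 234 ± 141 CPM in the NK gate and 26.7 ± 18.2 CPM in the CD8 gate (SD, n = 10), a log2 difference of 3.02 ± 0.33 (SE; adjusted p = 2.34e-05). Klrc2 was higher by 3.04 ± 0.28 and Klrk1 by 2.42 ± 0.22, each in 10 of 10 libraries. Klrd1 was higher by 1.09 ± 0.15 (adjusted p = 0.000233), from 291 ± 101 CPM in the CD8 gate to 623 ± 225 CPM in the NK gate. These 4 calls held in all 10 other settings and without each library in turn. Each Ly49 gene reached the filter's level in at most 5 of 10 libraries of the CD8 gate, so the Ly49 genes are given as values, with no p. Klra8 was at 135 ± 159 against 2.27 ± 3.83 CPM (917 and 62 UMIs), Klra9 at 147 ± 141 against 3.46 ± 3.37 CPM (1469 and 271) and Klra4 at 214 ± 247 against 4.52 ± 4.61 CPM (1299 and 245). Klra3 was at 69.5 ± 50.2 against 4.55 ± 4.46 CPM, Klra7 at 88.4 ± 84.9 against 9.42 ± 7.27 CPM and Klra1 at 31.4 ± 33.0 against 6.52 ± 6.72 CPM. The NK gate was higher in 10 of 10 libraries for Klra3 and Klra9, 9 of 10 for Klra1, Klra4 and Klra8 and 8 of 10 for Klra7. In all 7 protocol B libraries the CD8-gate levels of Klra1, Klra7, Klra9 and Klrc1 were below those of free RNA. So were Klra8, Klrd1 and Klrk1 in 6 of the 7, Klra3 and Klrc2 in 5 and Klra4 in 3. For Klra8, free RNA held only 1 UMI in D3 B and 1 UMI in D5 B. The part of free RNA in the levels of the CD8 gate was not tested.

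Receptors in the CD8 gate were compared between cells with and without Ccl5, a chemokine gene of memory and effector T cells. In 8 libraries (5123 cells with and 2216 without a Ccl5 UMI), 6 of the 10 genes passed the filter on low counts, and 12.2% of all 9693 genes tested were called, in either direction. Klra1, Klra7, Klrc1 and Klrc2 passed the filter through the Ccl5-detected cells, where they are high, so they are given by their counts, with no p. Klrc2 was at 42.0 ± 18.5 CPM with and 1.37 ± 1.09 CPM without Ccl5 (SD, n = 8), and Klrc1 at 44.6 ± 18.9 against 1.96 ± 1.53 CPM. Klrk1 was higher by 1.68 ± 0.19 on the log2 scale (SE; adjusted p = 8.35e-05), in 8 of 8 libraries. Without Ccl5 the counts were few: Klra7 held 743 UMIs with and 11 without it, a ratio of 24.5 in CPM with a counting interval of 13.6 to 49.2. This ratio and those that follow pool UMIs over the 8 libraries, and their intervals leave out the spread between libraries. The counts were 1710 and 33 for Klrc1 (ratio 18.8, 13.3 to 27.3) and 1505 and 22 for Klrc2 (24.8, 16.3 to 39.6). Klra1 held 397 UMIs with and only 3 UMIs without Ccl5, a ratio of 47.9 in CPM with a counting interval of 16.3 to 233. Among genes below the filter, Klra8 held 68 UMIs with and 0 without Ccl5, a ratio of 8.21 against a floor of 3 counts over the group with the lower end of the counting interval at 6.49, and Klra4 274 against 6 UMIs. The level of Klrc1 with Ccl5 was below its highest level in free RNA (147 CPM). Even with Ccl5, each Ly49 gene was detected in at most 5.00% of cells in any of these 8 libraries. D19 A, not among them, held at least 1 Ly49 gene in 13.6% of its 22 CD8-gate cells.

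Klrd1 did not pass between these cells. It was detected in 26.3% to 39.2% of cells with and 10% to 37.0% without Ccl5 (log2 difference -0.03 ± 0.15, adjusted p = 0.960). Siglech was detected in 34.4% of the Ccl5-negative and 9.29% of the Ccl5-detected cells, and the Siglech-detected cells of the gate held Klrd1 in 46.0% and 42.1%. In cells with Cd3e and no Siglech, Klrd1 was detected in 27.7% of 1191 Ccl5-negative cells (23% to 33.6% by library) and 32.7% of 4192 Ccl5-detected cells (25.6% to 40.0%), and its log2 difference was 0.20 (adjusted p = 0.395). Klrk1 in these narrowed cells was detected in 1.85% without and 13.7% with Ccl5, a log2 difference of 2.49 (adjusted p = 3.68e-05).

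By diet day, none of the 10 genes was called in the CD8 gate by edgeR or DESeq2, and 1 of the 10 had an unadjusted p under 0.05 in each comparison. Onset against steady state gave log2 differences from -3.30 to 0.85 (0.023% of 13059 genes called), progression against steady state from -2.58 to 2.23 (0.153% called), and progression against onset from -1.04 to 1.38. In the last comparison edgeR called 0% of genes, with 473 genes at an unadjusted p under 0.05, and DESeq2 called 3. Klrk1 was detected in 5.14%, 5.45%, 9.01%, 7.71%, 12.4%, 16.3% and 11.2% of CD8-gate cells at D0, D3, D5, D9, D19, D25 and STOP of protocol B, while Siglech was detected in 43.8%, 20.5%, 15.5%, 19%, 16.3%, 8.0% and 6.46%. The part of this cell makeup in the shares of Klrk1 was not tested. With protocol A, Klrk1 ran from 3.39% to 18.2% over 5 libraries (median 8.33%), and both ends of this range were at progression. Klrc1 ran from 0% to 7.64% and Klrd1 from 18.6% to 40.9% over the 12 libraries with at least 20 cells.

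Cells with both Ncr1 and Cd3e, 594 in all, carried another Ly49 pattern. In 6 protocol B libraries with at least 20 such cells beside the NK gate, Klra1 was at 51.7, 42.1, 65.5, 110, 246 and 119 CPM at D0, D5, D9, D19, D25 and STOP, and at 32.6, 4.39, 17.2, 19.6, 5.59 and 9.81 CPM in the NK gate. Klra7 was higher too in 6 of 6 libraries (199 ± 63.6 against 38.9 ± 31.1 CPM, SD, n = 6), as was Klra9 (139 ± 114 against 88.8 ± 72.1 CPM). Klra4 was lower in 5 of 6 libraries (8.48 ± 10.5 against 53.2 ± 57.8 CPM) and Klra8 in 4 of 6 (4.78 ± 4.75 against 37.0 ± 45.5 CPM). Klra3 (18.9 ± 19.7 against 50.3 ± 34.7 CPM) and Klrk1 (350 ± 90.4 against 505 ± 152 CPM) were lower in 6 of 6. Among the other NKG2 and CD94 genes, Klrc1 was lower in 5 of 6 (194 ± 79.8 against 274 ± 135 CPM), the activating Klrc2 in 3 of 6 (167 ± 49.9 against 196 ± 87.3 CPM) and Klrd1 in 5 of 6. In D5 B, D25 B and STOP the NK-gate level of Klra1 and Klra7 was below that of free RNA, as was that of Klra7 in D9 B. These values were not tested.

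After recovery, the 10 genes were compared with D19 B only as values, since each is a library without a replicate. All 10 were lower at STOP in CPM of the NK gate, and the 95% Poisson intervals, which cover counting error only, were separate for all but Klrd1. The share of all genes lower or separate between these libraries is not given here, so these counts are not read as particular to the receptors. Klra1 and Klra7 at STOP (9.81 and 19.8 CPM) were below their level in free RNA (31 and 37.8 CPM), and the part of free RNA was not tested. Klra4 was at 22.9 CPM (19 to 27.4) at STOP and 60.5 CPM (53.0 to 68.7) at D19 B, and Klrc1 at 276 (262 to 291) and 357 (339 to 376). Klrd1 was at 679 (656 to 701) and 689 CPM (663 to 715). Set beside the 3 progression libraries of protocol B, STOP lay within their range for 7 genes and below it for Klra3, Klra4 and Klra9. D19 B was itself the highest of these 3 libraries for every gene but Klra9 and Klrc1. NK-marker cells made up 3.67% of the gate at STOP and 6.34% at D19 B.

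The partners of the receptors were read from lists of genes, beside the 16% of all genes called between the gates. Whether these genes reached the filter's level in the lower group was not checked. A call can thus come from the group where a gene is high. In the CD8 gate the 15 other Klr genes summed to 45.8 to 320 CPM with protocol A, with 6 to 13 of them at 0 in a library. With protocol B they summed to 82.8 to 161 CPM, with 0 to 3 at 0. Of 15 other Klr genes, 6 were tested between the NK gate and the CD8 gate, 5 were higher and 1 lower (median log2 difference 4.10). Klrb1f (4.44 ± 0.20), Klrb1a (5.20 ± 0.30) and Klrb1c (4.59 ± 0.30), of the NKR-P1 family, were higher in 10 of 10 libraries, and Klra17 was lower (-2.75 ± 0.41, adjusted p = 0.000354). Of 10 adaptor and signalling genes, Fcer1g (1.52 ± 0.15) and Plcg2 (0.64 ± 0.15) were higher in the NK gate and Ptpn6, which encodes SHP-1, was lower (-0.70 ± 0.18, adjusted p = 0.0158), with a median of 0.09. Of 9 ligand genes 5 were tested, and the classical MHC class I genes H2-D1 (0.34 ± 0.07) and H2-K1 (0.38 ± 0.09) were higher. Of 8 regulators, Tbx21 (2.03 ± 0.30), Id2 and Nfil3 were higher and Tcf7 was lower (-2.01 ± 0.30).

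Between NK-marker and ILC1-marker cells, where 4.21% of all genes were called, 1 of 5 other Klr genes (Klri2, 1.17 ± 0.21, adjusted p = 0.0108) and 1 of 7 regulators (Tcf7, 1.30 ± 0.27, adjusted p = 0.0203) were higher, and none of 10 adaptors and 4 ligands passed. Between Klrc1-detected and other cells, where 2.8% were called, Klrb1f was higher (0.71 ± 0.17, adjusted p = 0.0491) and Eomes lower, and no adaptor or ligand passed. No gene of these 4 lists passed in the NK gate at onset or progression against steady state. With Ccl5 in the CD8 gate, where 12.2% were called, 4 of 5 other Klr genes were higher, among them Klrb1c (3.39 ± 0.42) and Klre1 (2.83 ± 0.31), and Klra17 was lower (-1.75 ± 0.17). The filter's level in the lower group was not checked for these genes either. Among adaptors, Zap70 (1.12 ± 0.12) and Hcst, which encodes the NKG2D adaptor DAP10 (1.04 ± 0.15), were higher and Ptpn6 (-0.62 ± 0.08) and Tyrobp, which encodes DAP12 (-0.97 ± 0.25, adjusted p = 0.0205), were lower. H2-T23, which encodes Qa-1, was lower by -0.37 ± 0.09 (adjusted p = 0.0179), and Tbx21 (2.86 ± 0.25) and Eomes (2.00 ± 0.26) were higher. Siglech-detected cells made up 34.4% of the Ccl5-negative and 9.29% of the Ccl5-detected cells, and 17.1% of the CD8 gate, and their part in the differences of Tyrobp, Ptpn6, Klra17 and H2-T23 was not tested.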

How the data were processed

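Per the labels and the study's methods, single liver cells were profiled by droplet 3' sequencing (10x v3.1), and the authors deposited, for each of 13 libraries, a matrix of raw UMI counts per gene and barcode with no filter on barcodes. The submitters' processing notes name kallisto and GRCm38, and versions and annotation are not given in the sources used here. Gene symbols were matched to GENCODE M21 (53388 of 55353 symbols).

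Barcodes with at least 1500 UMIs were kept, doublets were not removed, and barcodes with at most 100 UMIs were read as free RNA. Cells were thinned to 1500 UMIs (seed 11) for detection shares, with 95% Clopper-Pearson intervals for shares and exact Poisson intervals for sums, and a floor of 3 counts. The other cell groups needed at least 2 UMIs of their marker (20 for S100a8) and none of Ncr1, Cd3e or Cd8b1. For tests, the UMIs of a group were added up within each library holding 20 or more of its cells, and fitted in edgeR 4.0.16 (limma 3.58.1, R 4.3.3) by the quasi-likelihood test, with TMM normalisation, filterByExpr and Benjamini-Hochberg adjustment over all genes tested at 0.05. Stage fits held 10 (NK gate) or 11 (CD8 gate) of the 12 diet libraries with protocol as a term, and comparisons of cell groups held the library as a block. Replicate numbers in the labels stand for the protocol, so they pair libraries of different days by protocol and not by animal. As the labels do not tie libraries to animals, p-values measure the spread between libraries, which may be technical. The steps were tested on simulated data, where 200 genes changed by 2 on the log2 scale were recovered in 35.0% for the NK gate at onset against steady state, 52.0% at progression and 92.5% for the NK gate against the CD8 gate. Of the genes called there, 0%, 7.14% and 7.5% were unchanged genes, beside the threshold of 0.05. The highest such share was 10.5%, for the CD8 gate at progression against steady state.

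Named genes were the 10 receptors, genes of 4 lists (other Klr genes, adaptors and signalling, ligands, regulators), cell type markers, and the 5 genes most like the Ly49 sum over 12 groups. The members and lists were chosen with earlier results of these data known. Alternatives were DESeq2 1.42.0, other size factors (RLE), keeping low-count genes, cells of 3000 UMIs or more, likely mixed barcodes left out, stricter gates, no block, each protocol alone and each library left out. Sequences, positions and shared words came from GRCm38 and GENCODE M21, read with Python 3.11.15 (numpy 2.4.6, scipy 1.17.1, pandas 2.3.3, Biopython 1.88), and figures were drawn with matplotlib 3.10.9.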

Additional observations from a re-analysis of the deposited data

Results flagged for a closer look

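Of 20 groups of libraries tested for a library far from the others, 4 were flagged, and chance flags about 1 in 20. In the CD8 gate at progression (6 libraries), Klra1 was at 160 CPM in D19 A and at 0 to 17.7 CPM in the others, and Klra3 at 79.9 CPM in D19 A and at 0 to 12.2 CPM in the others. D19 A held 22 CD8-gate cells. Klra8 was at 8.84 CPM in D25 A, with 40 CD8-gate cells, and at 0 to 1.45 CPM in the others. In the NK gate at progression (5 libraries), Klra1 was at 68.5 CPM in D9 A, with 38 cells, and at 5.59 to 21.4 CPM in the others.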

How the results depend on the processing

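Counts of genes called over all genes depended on the processing, above all for the diet stages, where steady state has 2 libraries. In the NK gate, 2 genes were called at onset and 2 at progression against steady state, and 4 at progression against onset. DESeq2 called 96, 91 and 24 genes, no filter on low counts 293, 325 and 140, at least 3000 UMIs 0, 0 and 0, mixed barcodes left out 0, 0 and 16, protocol A alone 40, 17 and 42, and protocol B alone 595, 703 and 34, of which the onset count compares 1 library with 1 (D5 B and D0 B) and takes its spread from the progression libraries. Stricter gates called 0 at onset and 0 at progression, as did cells without ILC1-marker UMIs, which was chosen after seeing the data. In the CD8 gate, 3, 20 and 0 genes were called in the same comparisons, against 63, 301 and 3 with DESeq2, 367, 809 and 211 with no filter, 0, 1 and 0 with protocol A alone, and 106 and 1335 at onset and progression against steady state with protocol B alone. Progression against steady state gave 99 with mixed barcodes left out. Stricter gates gave 0 and 10 at onset and progression, and the gate with Cd3e and no Siglech, also chosen after seeing the data, 0 and 4. Among the 10 receptors in the NK gate, no filter called all 6 Ly49 genes at onset and Klra4, Klra8 and Klra9 at progression. In the main edgeR fit the same genes had adjusted p of 0.187 to 0.451 at onset and 0.297 to 0.333 at progression. The share of all genes called with no filter is not given here, so these calls are not read as particular to the receptors.

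The replicate numbers of the labels stand for the protocol. Without this replicate block, 0 genes were called in each of the 3 NK-gate comparisons, and 0, 11 and 0 in the CD8 gate, and none of the 10 receptors was called.

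Between cell groups, the NK gate against the CD8 gate gave 1353 genes, and 2279 with no filter, 2423 with the Cd3e gate without Siglech, 452 without the library block and 155 with protocol A alone. NK-marker against ILC1-marker cells gave 178, and 746 with no filter, 566 with at least 3000 UMIs, 89 with stricter gates and 18 without the library block. The Klrc1 split gave 172, and 886 with no filter, 1000 with at least 3000 UMIs, 363 with mixed barcodes left out, 856 with stricter gates, 992 with protocol B alone, 0 with protocol A alone and 0 without the library block. The Ccl5 split gave 1181, and 1827 with mixed barcodes left out, 389 with stricter gates, 569 with the Cd3e gate without Siglech and 203 without the library block. Protocol A alone could not be run for the NK-marker and Ccl5 comparisons.

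Leaving out each library in turn gave 0 to 141, 0 to 376 and 0 to 20 genes in the NK-gate stages, 0 to 12, 0 to 733 and 0 to 0 in the CD8-gate stages, 858 to 1631 for NK against CD8 gate, 65 to 585 for NK-marker against ILC1-marker cells, 20 to 578 for the Klrc1 split and 804 to 1365 for the Ccl5 split. The highest counts of the stages against steady state came without D0 A, which leaves D0 B as the only steady-state library, assumed to vary like the others. For the marker comparison the highest came without D0 B and the lowest without D25 B, and for the Klrc1 split without D3 A and D19 B.

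No called receptor changed direction. Among uncalled log2 differences in the NK gate, leaving out each library gave -1.67 to 0.0304 for Klrc2 at onset (above 0 without D0 A), -0.91 to 0.13 for Klrk1 at onset (without D5 B) and -1.55 to 0.15 for Klrc2 at progression (without D0 A). At progression Klra7, Klrc1, Klrc2 and Klrk1 turned to 0.28, 0.39, 0.69 and 0.13 with at least 3000 UMIs, Klrc1 to 0.0439 with mixed barcodes left out and Klrc2 to 0.46 with protocol B alone. Between marker kinds Klrd1 turned to -0.0595 with no filter and -0.0388 with mixed barcodes left out, and ran from -0.0414 to 0.26 without each library (below 0 without D25 B or STOP). Klrk1 in the Klrc1 split turned to -0.35 with protocol A alone. Klrd1 in the Ccl5 split turned to 0.00534 with DESeq2, 0.0233 with no filter, 0.12 with stricter gates, 0.20 with the Cd3e gate without Siglech and 0.0129 without the library block, and ran from -0.10 to 0.0548 without each library (above 0 without D0 B, D19 B or STOP). Over all settings and libraries left out, the uncalled differences between progression and onset in the NK gate changed sign in 32 of 200 fits, and those of the CD8-gate stages in 19, 11 and 6 of 202 fits each. There 1 call was gained, Klra1 at progression against steady state with no filter (2.28, adjusted p = 0.0110). Causes were not tested.

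Mean shares rose with depth. Without thinning they were, in the NK gate, 47.7% for Klrc1, 56.2% for Klrc2, 79.4% for Klrd1 and 80.3% for Klrk1, and in the CD8 gate 2.00% for Klra4, 2.22% for Klra7, 8.35% for Klrc1, 8.96% for Klrc2, 60.9% for Klrd1 and 21.8% for Klrk1. At 3000 UMIs they were 41.0% for Klrc1 and 70.5% for Klrk1 in the NK gate, and 1.98% for Klra7 and 47.7% for Klrd1 in the CD8 gate. Depth limits detection of each gene in a cell, so cells without a UMI are not shown to lack the transcript.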
